A study of Mus musculus with 10 samples.

Results

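The genes described here are 10 receptors and transporters tied to short-chain fatty acids and related monocarboxylates in the gut: Slc16a1, Slc16a3, Bsg, Slc5a8, Slc5a12, Slc26a3, Gpr35, Ffar2, Ffar3 and Hcar2. They were taken by gene symbol from a table of 24839 rows, and each symbol had 1 row. Transcripts were measured by sequencing of poly-A RNA from mouse intestine labelled as small intestinal epithelial cells, in 10 libraries, 5 titled NCD and 5 titled HCD. By the series title HCD stands for a high cellulose diet, while NCD is not spelled out in the sources used here. The treatment label is untreated for every NCD library and OVA (ovalbumin, the main protein of egg white, a common allergen in mouse models) for every HCD library. In the described design both diets lasted 60 days. Sensitised mice received 50 µg of OVA with 1 mg of an alum adjuvant by injection on days 0 and 14 and then 5 oral doses of 50 mg of OVA, and the other mice received saline. Diet, OVA and library number all go with the titles and cannot be told apart. The sources used here give no strain, sex or age, and no label says that each library is a separate mouse, so p-values measure the spread between these libraries.

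Acetate, propionate and butyrate are made by gut bacteria from fibre and are taken up by epithelial cells through proton-coupled carriers of the SLC16 family, which need the chaperone glycoprotein basigin at the membrane, and through sodium-coupled carriers of the SLC5 family. The receptors Ffar2, Ffar3 and Hcar2 sense these acids or related metabolites at the surface of epithelial, enteroendocrine and immune cells. Slc26a3 exchanges chloride for bicarbonate at the luminal membrane, and Gpr35 is a metabolite-sensing receptor of gut epithelium and leukocytes for which kynurenic acid is a known agonist.

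Values are FPKM, fragments per kilobase of transcript scaled to the mapped fragments of the library, so levels can be set beside each other between genes. The depth of each library is unknown. The tests used limma on log2(FPKM + 1) for genes averaging 1 FPKM or more, and a gene was called at a Benjamini-Hochberg adjusted p under 0.05 over 10321 tested genes. Of the 10 genes, 9 were tested and Ffar3 fell below the minimum. In HCD 1 of the 9, Slc16a3, was called higher and 2, Slc16a1 and Gpr35, were called lower. Over all tested genes 7.13% were called higher and 19.2% lower, so 3 calls among 9 genes are near the 26.3% called in either direction. Over all tested genes the median log2 difference was -0.19. The 13 genes encoded in mitochondrial DNA took 3.23% to 5.76% of summed FPKM in NCD and 14.8% to 29.5% in HCD. Rescaled to nuclear genes only, named the nuclear scaling here, the median was -0.05. On that scaling 8.95% of genes were called higher, 8.35% lower and 17.3% in all, and Slc16a3 was the 1 of the 9 genes called. With no minimum on the level 3.92% of genes were called higher, 8.2% lower and 12.1% in all, and none of the 10 genes was called (the lowest adjusted p was 0.0545 in limma, for Gpr35). As deposited, none of the 9 had every HCD library above every NCD library, where 4.53% of tested genes did. On the nuclear scaling Slc16a3 alone did, at 14.1 FPKM or more in HCD and at most 12.8 in NCD. There 6.52% of genes did.

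The column names number the libraries 1, 2, 3, 9 and 10 in NCD and 11, 12, 13, 19 and 20 in HCD. In each group the numbers break after replicate 3, and the meaning of the break is not labelled. By number NCD replicates 4 and 5 adjoin HCD replicates 1 to 3, so a split by replicate number is not a known batch. Among replicates 1 to 3 the log2 differences were -1.07 for Slc16a1, 0.61 for Slc16a3 and -0.95 for Gpr35. Among replicates 4 and 5 they were -0.51, 0.77 and -0.68. All kept their sign, and in limma only Gpr35 among replicates 1 to 3 passed (adjusted p = 0.0494).

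The libraries were not alike in their makeup. Of 9 markers of epithelium 7 were called lower and 1, Krt20, higher in HCD. Their summed level ranged from 11613 to 12385 FPKM in NCD and from 7030.4 to 9679 in HCD. The 10 markers of small-intestinal enterocytes did not follow them. Of these 3, Fabp2, Apoa1 and Apoa4, were called higher and 0 lower, with a median log2 difference of 0.18. Sums of that list ran from 18318 to 30031 FPKM in NCD and from 29752.5 to 44792 in HCD. All 10 markers of T cells and intraepithelial lymphocytes were called higher, with sums from 289.97 to 916 FPKM in NCD and from 1935 to 3827 in HCD. All 4 tested red blood cell markers, which are globin genes, were called higher as well, with sums of that list from 15.1 to 41.8 FPKM in NCD and from 96.6 to 391 in HCD. In such bulk samples fewer cells of a type and less RNA per cell cannot be told apart. Some markers of gut segments stood out in single HCD libraries. Car1, a carbonic anhydrase of colonocytes, was at 32.7 FPKM in HCD replicate 1 and 80.2 in HCD replicate 3, against 0.905 in NCD replicate 1 and 0 in the other 7 libraries. Hoxb13, a homeobox gene of the hindgut, was at 6.71 FPKM in HCD replicate 1 and listed at 0 in the other 9. Slc10a2, the bile acid carrier of the ileum, was at 7.43 FPKM in HCD replicate 5 and at most 1.92 in any other library. Of 5 tested ileal markers 0 were called higher and 2, Fgf15 and Slc51a, lower, beside 7.13% and 19.2% of all tested genes. Fabp6 and Slc51b were also highest in HCD replicate 5, at 1214 and 184 FPKM. Fgf15 was lower there (7.21 FPKM) than in any NCD library (19.6 to 60.3). Fabp6 was at 161 to 430 FPKM in NCD, so ileal transcripts were not particular to HCD replicate 5. Results were thus also computed without HCD replicates 1 and 3, and without HCD replicates 1, 3 and 5, settings chosen after these values had been seen. Neither setting left any of the 10 genes called. In the setting without replicates 1 and 3, 514 of all tested genes were called higher and 1260 lower.

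**Figure D1:**
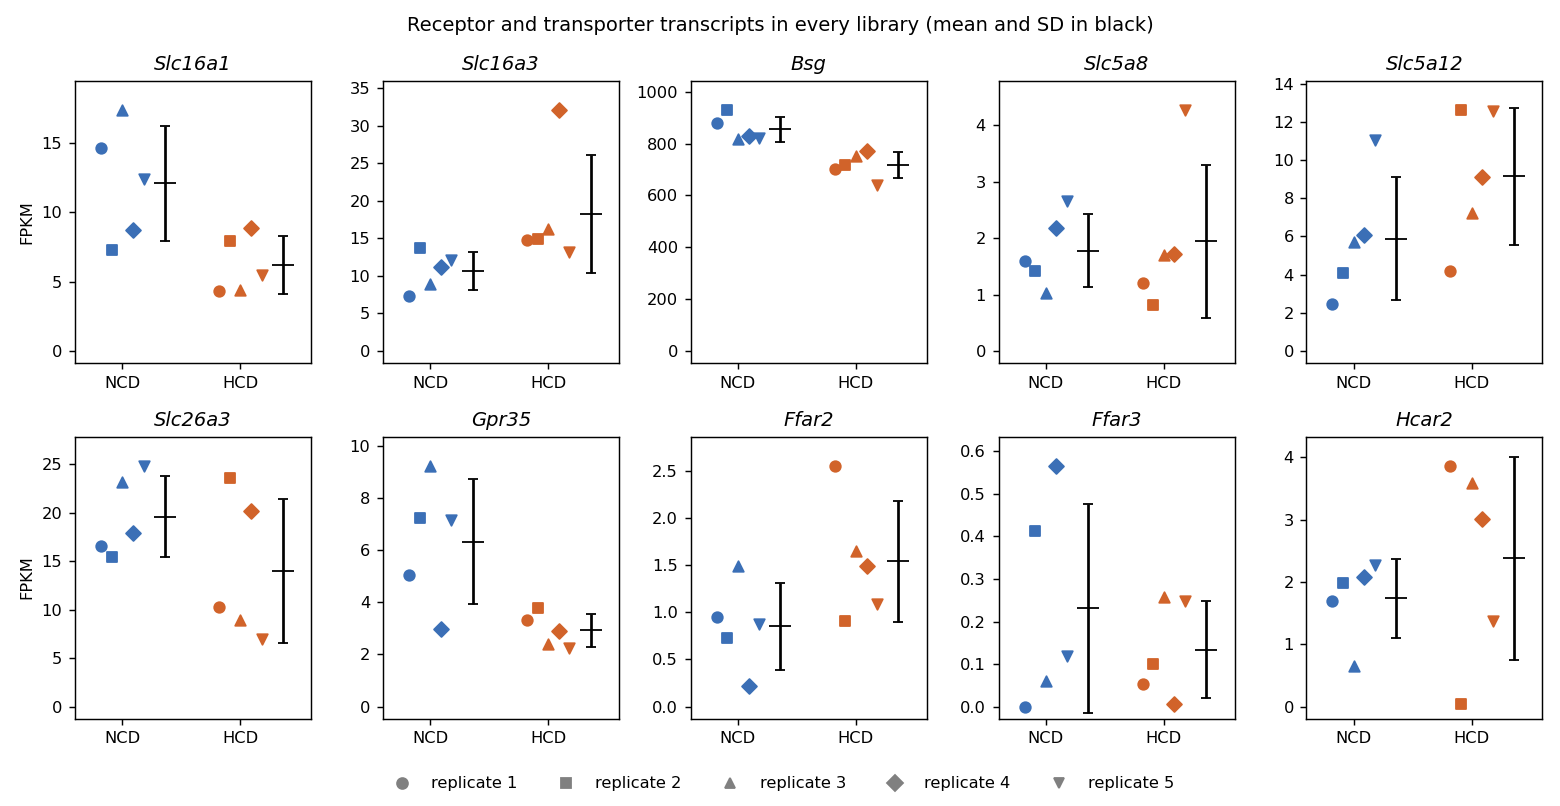
FPKM of each of the 10 genes (y axis, linear, a separate range per panel) in the 5 NCD and 5 HCD libraries, 1 symbol per replicate number, with the mean and SD in black. Bsg is the gene whose groups do not overlap, and HCD replicate 4 at 32.1 FPKM of Slc16a3 and HCD replicate 5 at 4.27 FPKM of Slc5a8 stand above the rest of their groups.

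By level, Bsg stood far above the other genes, averaging 856 FPKM in NCD libraries and 718 in HCD libraries. In NCD the order of the means below it was Slc26a3 (19.6), Slc16a1 (12.1), Slc16a3 (10.7), Gpr35 (6.33), Slc5a12 (5.88), Slc5a8 (1.78), Hcar2 (1.73), Ffar2 (0.853) and Ffar3 (0.232 FPKM). In HCD it was Slc16a3 (18.2), Slc26a3 (14.0), Slc5a12 (9.14), Slc16a1 (6.19), Gpr35 (2.93), Hcar2 (2.38), Slc5a8 (1.94), Ffar2 (1.54) and Ffar3 (0.133 FPKM). Neighbours in the NCD order overlapped in their ranges at every step below Bsg. In HCD neighbours overlapped except between Slc16a1 and Gpr35 and between Ffar2 and Ffar3.

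Slc16a1 encodes the monocarboxylate transporter MCT1, which carries lactate, pyruvate, ketone bodies and short-chain fatty acids with a proton. The gene lies on the plus strand of chromosome 3 (chr3:104638668-104658462, GRCm38), with 1 annotated transcript of 5 exons. Slc16a1 was at 14.6, 7.27, 17.4, 8.71 and 12.4 FPKM in NCD replicates 1 to 5. Slc16a1 in the HCD replicates, in the same order, was at 4.31, 7.92, 4.39, 8.83 and 5.49 FPKM. Every HCD library lay below the NCD mean, 3 of them below every NCD library, and HCD replicates 2 and 4 within the NCD range. Slc16a1 fell 1.95-fold in mean FPKM, from 12.1 ± 4.15 to 6.19 ± 2.08 (SD, n = 5), with a log2 difference of -0.85 ± 0.25 (SE, adjusted p = 0.0227 in limma). On the nuclear scaling the log2 difference was -0.70 and missed the threshold (adjusted p = 0.0791 in limma). The libraries with the highest Car1 and Slc10a2, HCD replicates 1, 3 and 5, were the 3 lowest for Slc16a1. The call was also lost on leaving out NCD replicate 1, NCD replicate 3, HCD replicate 1 or HCD replicate 3 alone (adjusted p from 0.0531 to 0.0634 in limma). Without replicates 1 and 3 the log2 difference was -0.60 (adjusted p = 0.148), and without all 3 it was -0.42 (adjusted p = 0.393). Leaving out the lowest HCD libraries raises the HCD mean by construction, and the part of gut segment in the Slc16a1 values was not tested.

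Slc16a3 encodes MCT4, a low-affinity carrier of the same family that exports lactate from glycolytic cells, leukocytes among them. It lies on the plus strand of chromosome 11 (chr11:120948480-120960868), with 8 annotated transcripts. Slc16a3 was at 7.32, 13.8, 8.95, 11.2 and 12.1 FPKM in NCD replicates 1 to 5. In HCD replicates 1 to 5 Slc16a3 was at 14.8, 14.9, 16.3, 32.1 and 13.1 FPKM. All HCD libraries lay above the NCD mean and 4 above every NCD library, with HCD replicate 5 just under NCD replicate 2. Slc16a3 rose 1.71-fold, from 10.7 ± 2.56 to 18.2 ± 7.83 FPKM (SD, n = 5), with a log2 difference of 0.67 ± 0.23 (SE, adjusted p = 0.0446 in limma). On the nuclear scaling it was 0.83 (adjusted p = 0.0231). HCD replicate 4 carried much of the mean. Without it the log2 difference was 0.46 and missed the threshold (adjusted p = 0.0909 in limma). The call was also lost on leaving out any single library other than NCD replicate 2 or HCD replicate 5, at an adjusted p of up to 0.115 over all single libraries. The T cell markers, whose cells can make Slc16a3, moved the same way, and their part in the difference was not tested.

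The promoters of Slc16a1 and Slc16a3 are shown because these related carriers moved in opposite directions, and that of Gpr35 because it fell with Slc16a1. Each is 300 bases from RefSeq (GRCm38.p6, plus strand), 250 before the transcription start and 50 after it, at chr3:104638414-104638713, chr11:120948817-120949116 and chr1:92978653-92978952, and the Gpr35 window is the downstream of 2 listed starts. The other Gpr35 window, at chr1:92972869-92973168, held none of the motifs searched and is not shown. Capitals mark matches on either strand to the hypoxia response element core ACGTG, to the E-box CACGTG, which contains it, and to the AP-1 motif TGACTCA.
Slc16a1: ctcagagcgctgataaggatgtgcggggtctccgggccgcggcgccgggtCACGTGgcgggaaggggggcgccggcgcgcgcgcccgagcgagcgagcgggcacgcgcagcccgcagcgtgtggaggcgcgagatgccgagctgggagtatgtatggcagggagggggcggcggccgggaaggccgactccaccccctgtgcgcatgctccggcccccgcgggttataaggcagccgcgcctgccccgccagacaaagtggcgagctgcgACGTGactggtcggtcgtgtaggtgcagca
Slc16a3: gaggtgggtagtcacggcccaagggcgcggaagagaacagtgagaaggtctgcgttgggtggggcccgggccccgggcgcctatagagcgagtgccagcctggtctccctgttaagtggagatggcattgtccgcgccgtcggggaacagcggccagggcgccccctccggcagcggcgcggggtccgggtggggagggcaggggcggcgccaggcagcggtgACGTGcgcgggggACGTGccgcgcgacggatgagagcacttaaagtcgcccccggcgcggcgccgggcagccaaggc
Gpr35: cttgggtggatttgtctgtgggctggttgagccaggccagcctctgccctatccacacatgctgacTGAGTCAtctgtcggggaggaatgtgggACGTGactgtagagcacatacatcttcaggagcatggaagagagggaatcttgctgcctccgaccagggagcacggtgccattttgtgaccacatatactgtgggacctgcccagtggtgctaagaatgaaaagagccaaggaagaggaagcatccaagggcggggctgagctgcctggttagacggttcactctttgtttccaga
The Slc16a1 window held CACGTG from -200 to -195 and a further ACGTG from 20 to 24, with the start at 0. Slc16a3 held ACGTG from -27 to -23 and from -14 to -10, the first overlapping a match to TGACG, the core of the cAMP response element. Gpr35 held ACGTG from -156 to -152 and TGACTCA, read on the minus strand, from -184 to -178. Among 32851 listed promoters 19.6% held ACGTG, 7.15% CACGTG, 5.20% TGACTCA and 20.8% TGACG on either strand. The GC box GGGCGG, in 35.7% of listed promoters, was present in all 3 windows, and TATAAA and the CDX motif TTTATG in none of them. A match is a description of these letters and says nothing on binding in these cells.

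Because both carriers were measured in the same library, their ratio does not depend on the scaling. The ratio of Slc16a3 to Slc16a1 in FPKM was 0.501, 1.89, 0.515, 1.29 and 0.976 in NCD replicates 1 to 5. In HCD replicates 1 to 5 the ratio was 3.43, 1.88, 3.71, 3.63 and 2.39. The highest NCD library, replicate 2, and the lowest HCD library, replicate 2, were nearly equal, and the other HCD libraries lay above every NCD library. The log2 ratio was higher in HCD by 1.68 (exact permutation p = 0.0159, two-sided, adjusted p = 0.0635 over 4 quantities chosen after their values were seen). The smallest p that 252 splits of 5 against 5 allow is 0.00794. Leaving out single libraries gave 1.47 to 1.95, and the difference was 1.87 among replicates 1 to 3 and 1.39 among replicates 4 and 5. The sum of both carriers was 22.8 ± 2.63 FPKM in NCD and 24.4 ± 9.37 in HCD (SD, n = 5, exact permutation p = 0.929).

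**Figure D2:**
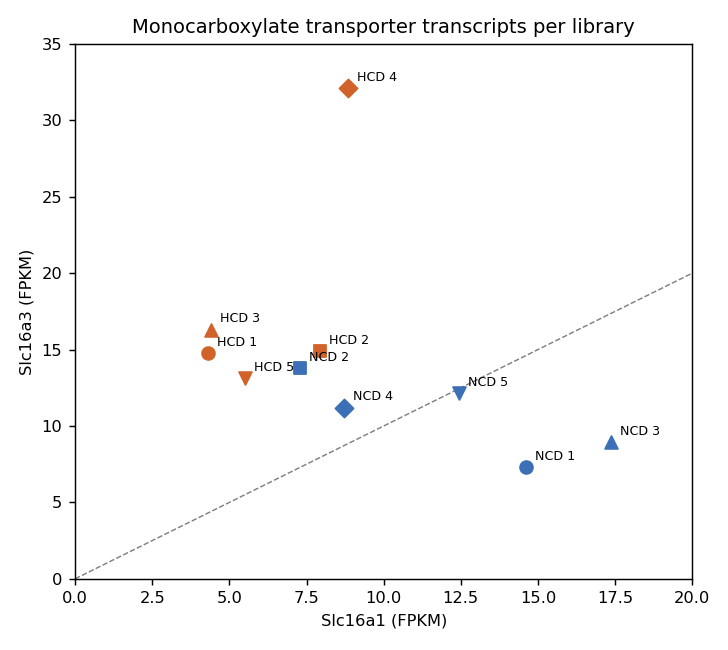
Slc16a1 (x axis) against Slc16a3 (y axis), both in FPKM, 1 point per library, blue for NCD and orange for HCD, with the dashed line at equal levels. All 5 HCD libraries lie above the line, as do NCD replicates 2 and 4, and HCD replicate 4 is the highest at 32.1 FPKM of Slc16a3.

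Bsg encodes basigin, the single-pass glycoprotein that brings MCT1 and MCT4 to the membrane, on the plus strand of chromosome 10 (chr10:79704491-79711969). Bsg was at 879, 930.0, 818, 829 and 821 FPKM in NCD replicates 1 to 5. Bsg in the HCD replicates, in the same order, was at 703, 719, 751, 772 and 642 FPKM. Each HCD library lay below each NCD library, as for 12.9% of all tested genes. Bsg nevertheless missed the threshold, with a log2 difference of -0.25 ± 0.12 (SE, adjusted p = 0.119 in limma). It passed after rescaling to TPM, which gives every library the same total (-0.33, adjusted p = 0.0487 in limma). On the nuclear scaling the groups overlapped, at 759 to 865 FPKM in NCD and 688 to 800.4 in HCD, and the log2 difference was -0.08 (adjusted p = 0.653). On that scaling 6% of genes had every HCD library below every NCD library. Per library, Bsg was 31.1 to 44.2 times the sum of Slc16a1 and Slc16a3 in NCD and 18.9 to 36.8 times in HCD (log2 difference -0.30, exact permutation p = 0.175, adjusted p = 0.286 over the same 4 quantities).

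Slc5a8 encodes SMCT1, a sodium-coupled carrier of short-chain fatty acids and lactate found mainly in the distal gut, and Slc5a12 encodes SMCT2, its low-affinity relative. They lie on chromosome 10 (chr10:88885992-88929515) and chromosome 2 (chr2:110597298-110647779), both on the plus strand. Slc5a8 was at 1.03 to 2.66 FPKM in NCD and at 1.21, 0.818, 1.70, 1.72 and 4.27 in HCD replicates 1 to 5. The groups overlapped, with a log2 difference of 0.01 ± 0.27 (SE, adjusted p = 0.977 in limma). HCD replicate 5, the library with Slc10a2 at 7.43 FPKM, was the highest for Slc5a8, and without it the log2 difference was -0.22 (adjusted p = 0.510). The part of gut segment in the Slc5a8 values was not tested. Slc5a12 was at 2.46, 4.08, 5.71, 6.09 and 11.1 FPKM in NCD replicates 1 to 5. Its HCD values, in the same order, were 4.19, 12.6, 7.25, 9.10 and 12.6 FPKM. The mean of Slc5a12 was 1.56 times that of NCD, from 5.88 ± 3.23 to 9.14 ± 3.60 FPKM (SD, n = 5), a log2 difference of 0.60 ± 0.33 that did not pass (SE, adjusted p = 0.191 in limma). Leaving out single libraries gave 0.38, without NCD replicate 1, to 0.83, without NCD replicate 5, and none of these passed. In all 10 libraries Slc5a12 was above Slc5a8, by 1.55 to 5.57 times in NCD and 2.94 to 15.4 times in HCD (log2 difference of the ratio 0.73, exact permutation p = 0.214, adjusted p = 0.286 over the 4 quantities).

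Slc26a3, known as DRA, lies on the plus strand of chromosome 12 (chr12:31390871-31473917) and carries an annotated processed pseudogene, Gm9359, within its span. Slc26a3 was at 16.5, 15.4, 23.2, 17.9 and 24.9 FPKM in NCD replicates 1 to 5. In HCD replicates 1 to 5 Slc26a3 was at 10.2, 23.6, 8.93, 20.2 and 7.02 FPKM. HCD replicates 2 and 4 lay inside the NCD range, and HCD replicates 1, 3 and 5 below every NCD library, the same split as for Slc16a1. The log2 difference of -0.57 ± 0.28 did not pass (SE, adjusted p = 0.148 in limma). It passed without HCD replicate 2 (-0.79, adjusted p = 0.0397 in limma). Without HCD replicates 1, 3 and 5 it was 0.17 (adjusted p = 0.649). Leaving out the lowest HCD libraries raises the HCD mean by construction, and the part of gut segment in the difference was not tested.

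**Figure D3:**
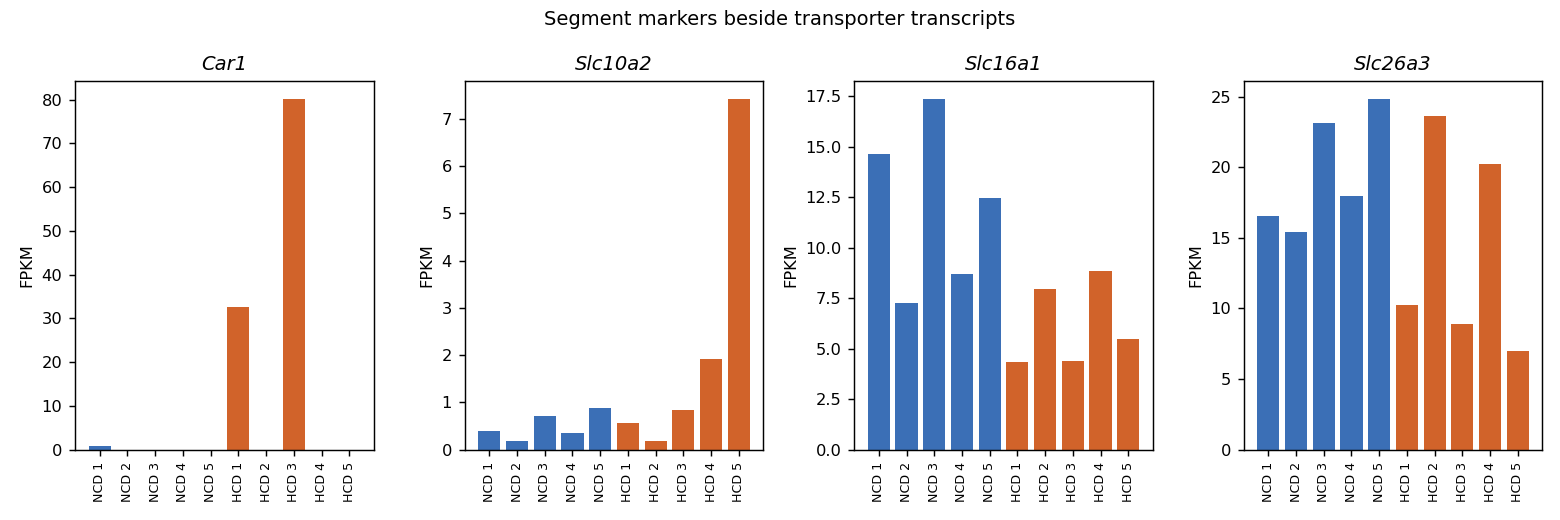
FPKM per library (bars, from 0) of Car1, a colonocyte gene, Slc10a2, an ileal gene, and the transporters Slc16a1 and Slc26a3, blue for NCD and orange for HCD. HCD replicates 1 and 3 hold Car1 at 32.7 and 80.2 FPKM and HCD replicate 5 holds Slc10a2 at 7.43, and these 3 libraries are the lowest of their group for both transporters.

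Gpr35, on the plus strand of chromosome 1 (chr1:92950865-92986391, 6 annotated transcripts), had the highest mean of the 4 receptors in both groups, though in HCD it lay above Hcar2 in only 2 of 5 libraries. Gpr35 was at 5.03, 7.22, 9.24, 2.98 and 7.15 FPKM in NCD replicates 1 to 5. Gpr35 in the HCD replicates, in the same order, was at 3.30, 3.78, 2.40, 2.88 and 2.26 FPKM. NCD replicate 4 lay among the HCD libraries, and the other NCD libraries above them all. Gpr35 fell 2.16-fold, from 6.33 ± 2.39 to 2.93 ± 0.631 FPKM (SD, n = 5), with a log2 difference of -0.84 ± 0.24 (SE, adjusted p = 0.0205 in limma). The difference was -0.71 on the nuclear scaling (adjusted p = 0.0752 in limma), and -0.70 without NCD replicate 3 (adjusted p = 0.0578). Without HCD replicates 1 and 3 it was -0.83 (adjusted p = 0.0725), and without HCD replicates 1, 3 and 5 it was -0.69 (adjusted p = 0.205).

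Ffar2 and Ffar3, G protein-coupled receptors for short-chain fatty acids, lie close together on the minus strand of chromosome 7 (chr7:30818348-30823775 and chr7:30854330-30856178). Ffar2 was at 0.948, 0.726, 1.50, 0.215 and 0.877 FPKM in NCD replicates 1 to 5. Ffar2 in the HCD replicates, in the same order, was at 2.56, 0.909, 1.65, 1.50 and 1.08 FPKM. All HCD libraries lay above the NCD mean of 0.853, and 2 above every NCD library. The log2 difference of 0.46 ± 0.23 did not pass (SE, adjusted p = 0.156 in limma), and was 0.25 without HCD replicates 1 and 3 (adjusted p = 0.531). Ffar3 ranged from 0 to 0.567 FPKM in NCD and from 0.00708 to 0.257 in HCD, listed at 0 in 1 library. Without a minimum its log2 difference was -0.10 ± 0.13 (SE, adjusted p = 0.647 in limma over 18440 genes).

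Hcar2, a receptor for niacin, the ketone body β-hydroxybutyrate and butyrate, is a gene of 1 exon on the minus strand of chromosome 5 (chr5:123863570-123865499). Hcar2 was at 1.69, 1.98, 0.655, 2.08 and 2.27 FPKM in NCD replicates 1 to 5. In HCD replicates 1 to 5 Hcar2 was at 3.87, 0.0415, 3.59, 3.01 and 1.38 FPKM. The HCD libraries held both the lowest value and the 3 highest values of the series, and HCD replicates 1 and 3 with Car1 were the top pair. The log2 difference was 0.15 ± 0.37 (SE, adjusted p = 0.803 in limma), and -0.31 without HCD replicates 1 and 3 (adjusted p = 0.624). Leaving out the top pair lowers the HCD mean by construction, and the part of gut segment in the Hcar2 values was not tested. Markers of other cells that can carry these receptors overlapped between the groups in their summed levels. Of 6 tested enteroendocrine markers 1, Tph1, was called higher beside 7.13% of all tested genes, and 4 on the nuclear scaling beside 8.95%, with list sums from 168 to 239 FPKM in NCD and from 175 to 689 in HCD. Of 7 tested macrophage and dendritic cell markers 1, Itgax, was called higher, with sums of 20.9 to 70.8 and 43.9 to 90.2 FPKM. Among neutrophil markers Mmp8 was listed at 0 in every library, S100a8 was above 0 in 1 library at 1.02 FPKM, Ly6g reached 8.57 FPKM in HCD replicate 1, and neither of the 2 tested, Retnlg and Mmp9, passed. The sums of that list reached 55.4 FPKM in NCD replicate 4 and 93.8 in HCD replicate 1. Most of both sums was Retnlg alone, at 51.1 and 76.2 FPKM. The part of these cells in the receptor values was not tested.

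**Figure D4:**
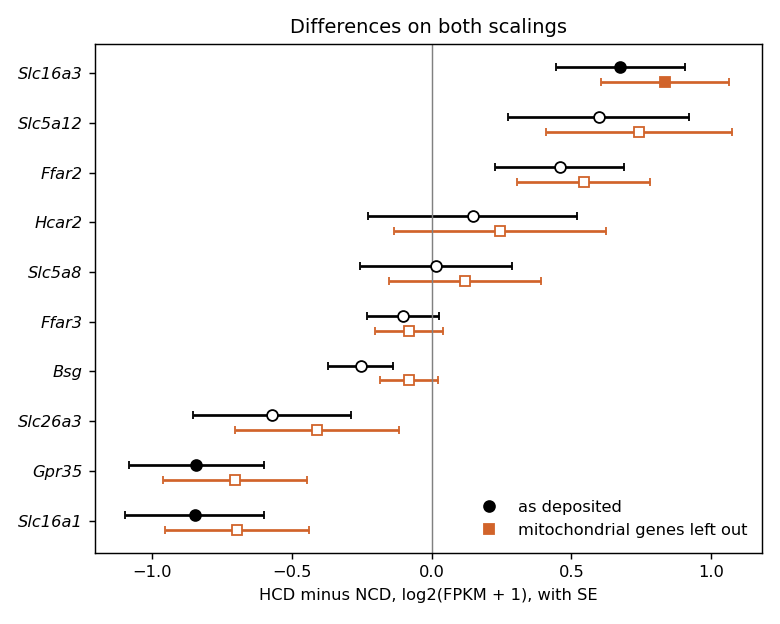
Difference of HCD from NCD in log2(FPKM + 1) with its SE (x axis) for each gene (y axis), as deposited (black circles) and on the nuclear scaling (orange squares), filled where the adjusted p was under 0.05. As deposited Slc16a3 (0.67), Gpr35 (-0.84) and Slc16a1 (-0.85) are filled, and on the other scaling Slc16a3 alone (0.83).

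Some genes followed the called ones closely over the 10 libraries, measured as the root mean square difference of log2(FPKM + 1) profiles after centring each gene on its mean. Nearest to Slc16a1 were Hspa9 (0.14), a mitochondrial chaperone, Plekhf2 (0.17) and Zdhhc13 (0.17), a palmitoyltransferase. Nearest to Slc16a3 were Tmem198 (0.23), Pde4b (0.25), a cAMP phosphodiesterase, and Vps37b (0.26). Tmem198 averaged 0.628 FPKM in NCD and 1.59 in HCD, and Pde4b 1.35 and 3.08, low levels at which the added 1 narrows differences. Nearest to Gpr35 were Fam234b (0.19), Nedd4l (0.20), a ubiquitin ligase that controls epithelial sodium channels, and Cox10 (0.20), an assembly factor of cytochrome c oxidase.

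Other carriers of the SLC16 family and relatives of basigin were mixed. Of 8 tested among 14 listed, 2 were called higher and 1 lower, with a median log2 difference of 0.13 against -0.19 over all tested genes. Over all tested genes 7.13% were higher and 19.2% lower. Slc16a5, the most abundant of them, fell from 342 ± 24.7 to 169.6 ± 38.0 FPKM (SD, n = 5), with a log2 difference of -1.04 (adjusted p = 0.00068 in limma). Its libraries did not overlap, at 306 to 374 FPKM in NCD and 112 to 210.3 in HCD. Emb, embigin, a relative of basigin that can also escort SLC16 carriers, rose from 1.65 ± 0.837 to 3.90 ± 1.16 FPKM (log2 difference 0.92). Slc16a11 rose from 2.36 ± 0.789 to 4.61 ± 1.57 FPKM (log2 difference 0.73).

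Among partners of anion and proton exchange, of 16 tested genes 2 were called higher and 1 lower, with a median of -0.16, a smaller share than the 26.3% called over all tested genes. The nuclear scaling gave 3 higher and 0 lower. Pdzk1, a scaffold that binds brush border transporters, rose from 33.1 ± 11.1 to 65.1 ± 14.9 FPKM (log2 difference 0.99). Car4, a membrane carbonic anhydrase, fell from 261 ± 68.6 to 150.4 ± 40.2 FPKM (-0.79), and missed the threshold on the nuclear scaling (-0.62, adjusted p = 0.0564 in limma). Car2, a cytosolic carbonic anhydrase, rose from 7.56 ± 2.43 to 13.9 ± 4.83 FPKM (0.76). Slc26a6, a relative of Slc26a3 with a higher level in these libraries, averaged 514 ± 58.7 FPKM in NCD against 459.8 ± 120.5 in HCD (adjusted p = 0.444 in limma). It was named after its values were seen.

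Enzymes that activate and oxidise short-chain fatty acids were lower in part. Of 15 tested 9 were called lower and none higher, with a median of -0.45, where 19.2% of all tested genes were lower. On the nuclear scaling 4 of the 15 were lower, the median was -0.28 and 8.35% of all genes were lower. Mcee, methylmalonyl-CoA epimerase, which handles carbon from propionate, fell from 40.3 ± 8.09 to 20.9 ± 1.51 FPKM (log2 difference -0.89). Pccb, a subunit of propionyl-CoA carboxylase, fell from 51.6 ± 7.56 to 30.6 ± 3.34 FPKM (-0.73). Both passed on both scalings. Acads, which takes the first oxidation step of butyrate and was named after its values were seen, was at 146 ± 12.6 and 129 ± 13.6 FPKM (adjusted p = 0.264).

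In lactate and pyruvate handling 1 of 10 tested genes was called higher and 3 lower, with a median of -0.26, where 26.3% of all tested genes were called. The nuclear scaling gave 1 higher and 2 lower, where 17.3% of all genes were called. Pdhb, a subunit of pyruvate dehydrogenase, fell from 117 ± 23.5 to 50.2 ± 11.6 FPKM (log2 difference -1.21), and Dlat, another part of that complex, from 16.6 ± 2.92 to 9.15 ± 3.22 FPKM (-0.84). Pcx, pyruvate carboxylase, rose from 7.26 ± 1.51 to 15.5 ± 2.45 FPKM (1.00). Of 4 deacetylases that butyrate inhibits, Hdac3 was called lower, from 56.6 ± 5.75 to 41.1 ± 6.13 FPKM (-0.46), and on the other scaling it did not pass (-0.29, adjusted p = 0.130 in limma). Hdac8 (-0.49) and Hdac2 (-0.54) did not pass on either.

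Among 16 other metabolite-sensing receptors 5 reached the minimum, and 4 were listed at 0 in every library. Of those 5, 3 were called higher and 1 lower on both scalings, beside 7.13% and 19.2% of all tested genes as deposited. Gpr132, a receptor for lactate and lipids with a known role in macrophages, rose from 9.88 ± 5.15 to 20.9 ± 1.23 FPKM (log2 difference 1.13). P2ry14, which senses UDP-sugars, rose from 1.45 ± 1.00 to 4.76 ± 1.51 FPKM (1.29). Ffar4, the receptor for long-chain fatty acids, fell from 4.31 ± 1.15 to 1.88 ± 0.379 FPKM (-0.86). Among G proteins, arrestins and their regulators 5 of 13 tested genes were called higher and none lower on either scaling, with a median of 0.14. The shares over all tested genes were 7.13% higher and 19.2% lower. Rgs1, a brake on receptor signalling typical of lymphocytes, rose from 14.9 ± 3.26 to 60.1 ± 15.7 FPKM (1.92), Rgs2 from 7.55 ± 0.650 to 15.1 ± 0.642 (0.91) and Gnai2, an inhibitory G protein subunit, from 84.3 ± 9.41 to 129.7 ± 15.4 (0.62). The T cell markers were higher in the same libraries, and their part in these values was not tested.

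**Figure D5:**
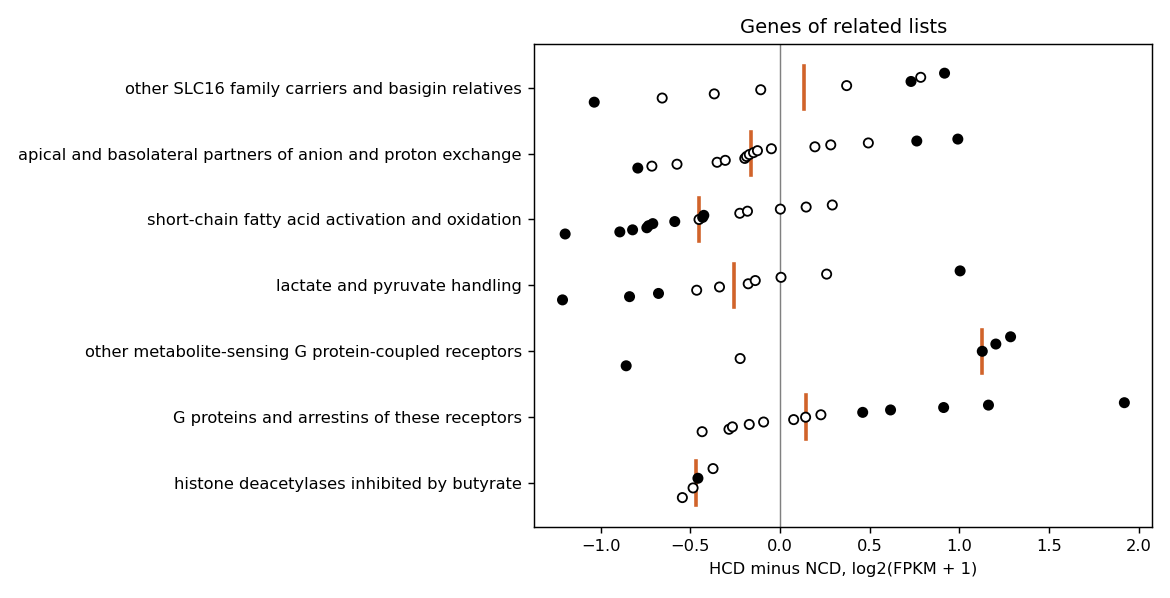
Difference of HCD from NCD in log2(FPKM + 1) (x axis) of each tested gene in the 7 related lists (y axis), filled where the adjusted p was under 0.05, with the list's median as an orange bar. The medians run from -0.47 for the 4 deacetylases to 1.13 for the other metabolite-sensing receptors, beside -0.19 over all tested genes.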

How the data were processed

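The deposited values are FPKM, 1 column per library, per the file headers. HISAT2, StringTie, DESeq2, edgeR and the build GRCm38 are named in the submitters' processing notes. Which version or role each tool had, the gene models, filters and strandedness were not given in the sources used here. The labels' protocol names TRIzol, a plant RNA kit and poly-T selection. FPKM are shares of a library, so very abundant transcripts lower the others. Libraries were grouped by title. Coordinates come from GENCODE release M21 on GRCm38 and promoters from RefSeq, for 7 of the 10 genes.

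Values were fitted as log2(FPKM + 1) with limma 3.58.1 in R 4.3.3 (eBayes with a trend, two-sided, Benjamini-Hochberg over all tested genes). The fit was tested on simulated data. Ratios were tested by exact permutation of libraries. Lists are described by counts and medians. The genes, lists and settings were chosen with earlier results of these data known. Named genes are the 10 genes, up to 3 per list by smallest p, and the 3 nearest profiles of each called gene, besides cell markers where a result needed them and 2 genes chosen after their values were seen. A gene that this rule names is not reported here. Alternatives comprised 20 planned settings and 4 chosen after seeing the data. Replicate numbers of the titles did not pair libraries across groups.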

Additional observations from a re-analysis of the deposited data

Results flagged for a closer look

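Among 20 groups of 5 libraries, 2 held a library far from the other 4, and chance gives about 1 in 20. Slc16a3 in HCD replicate 4 was at 32.1 FPKM, with the other HCD libraries between 13.1 and 16.3. Slc5a8 in HCD replicate 5 was at 4.27 FPKM, with the other HCD libraries between 0.818 and 1.72.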

How the results depend on the processing

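The calls for single genes were fragile. Slc16a1 and Slc16a3 kept their direction in all 24 settings and Gpr35 in the 23 that tested it, but the call was lost in 13, 16 and 7 of these. Leaving out single libraries gave 0 to 1 of the 10 genes called higher and 0 to 3 called lower, and 551 to 787 higher and 1319 to 2036 lower among all genes. None of the 10 genes was called higher or lower without a filter (0 and 0, with 723 and 1513 among all genes). The same held with no filter and the mitochondrial genes left out (0 and 0, with 840 and 552 among all genes). It also held among replicates 4 and 5 only (0 and 0, with 45 and 11 among all genes). Leaving out HCD replicates 1 and 3 gave 0 and 0, with 514 and 1260 among all genes. Leaving out HCD replicates 1, 3 and 5 gave 0 and 0, with 315 and 697 among all genes. A minimum of 5 FPKM gave 1 lower, since Gpr35 was not tested, and 433 higher among all genes. Rescaling to TPM gave 0 higher. Leaving out the mitochondrial genes gave 0 lower and 861 lower among all genes, and quantile normalization 883. Among replicates 1 to 3 there were 0 higher and 1 lower (414 and 1006 among all genes). With no filter and a pseudocount of 0.1 there were 0 higher and 1 lower. The cause of these changes was not tested. Some of the settings also used fewer libraries or tested other genes.

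With a replicate block 1 gene was lower, as Slc16a1 missed the threshold (adjusted p = 0.0630 in limma), and 673 and 1620 genes were called among all genes. Correlations of same-numbered libraries ran from -0.235 to 0.218, and not every library matched its own number best, so the block is not a pairing of the design.

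Differences that changed sign were uncalled. For Slc5a8 they were -0.017 at a pseudocount of 0.1 with or without a filter, -0.047 in TPM, -0.077 among replicates 1 to 3, -0.29 without HCD replicates 1, 3 and 5, and -0.22 to 0.16 on leaving out single libraries (-0.0034 without NCD replicate 1). For Hcar2 they were -0.12 at a pseudocount of 0.1 with or without a filter, -0.039 among replicates 4 and 5, -0.31 without HCD replicates 1 and 3, -0.38 without 1, 3 and 5, and -0.035 to 0.52 on leaving out single libraries. Slc26a3 was 0.17 without HCD replicates 1, 3 and 5. Unknown depth limits what can be said of Ffar3, Ffar2 and Hcar2.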
